A study of Mus musculus with 6 samples.

Results

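The 10 genes described here encode the 4 Notch receptors (*Notch1*, *Notch2*, *Notch3* and *Notch4*), 4 of their ligands (*Jag1*, *Jag2*, *Dll1* and *Dll4*) and 2 transcription factors of the Hey family (*Hey1* and *Heyl*). They were chosen by name as the vascular core of the pathway and matched by symbol in the annotation of NCBIM37, which found all 10 among the 33460 genes in the files. All 10 passed the filter on low values that left 14801 genes for testing. RNA-seq had been performed on the brains of 3 mice at postnatal day 6 that carried the *NG2-DsRed* transgene together with *Pdgfrb-eGFP* (line Tg(Pdgfrb-eGFP)JN169Gsat/Mmucd), and each brain was divided between both preparations, so all libraries carry both reporters. For 3 libraries the cells positive for eGFP and DsRed were sorted by FACS, and for the other 3 microvascular fragments were pulled out with magnetic beads carrying an antibody to CD31, an endothelial surface protein. DsRed was driven by the promoter of *NG2* (*Cspg4*) and eGFP by that of *Pdgfrb*. The sort was thus aimed at pericytes (PC) and those vascular smooth muscle cells (VSMC) with both signals, whereas the fragments contain endothelial cells (EC) and mural cells. Where groups are compared below, mural cells means the sorted libraries, which also held transcripts of other cell types. The labels do not say whether the replicate numbers 1 to 3 stand for the same animal in both groups.

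Notch signaling works between neighbouring cells. A Jagged or Delta-like ligand on the surface of a cell binds a Notch receptor on the next cell, the receptor is cleaved first by an ADAM protease and then by gamma-secretase, and its intracellular part enters the nucleus, where it joins RBPJ and Mastermind and switches on genes of the Hes and Hey families. In blood vessels *Dll4* and *Notch4* are known as endothelial genes, *Jag1* is known in both EC and VSMC, and *Notch3* is known as the receptor of mural cells, whose human counterpart is mutated in the small vessel disease CADASIL.

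The libraries were checked against markers before the Notch genes were compared. All 11 mural cell markers were higher in the sorted cells, with a median level of 908% of that in fragments. The authors had already reported these 11 as enriched in the same libraries. *Pdgfrb* and *Cspg4*, whose promoters drove the reporters used for the sort, are among them, so this check is not independent. EC transcripts were present in both groups: the 12 EC markers had a median level in sorted cells of 72.8% of that in fragments (range 35.3% to 129%), 5 of the 12 were lower at an adjusted p under 0.05, and none was at 0. All 8 microglia markers were lower, at a median of 8.94%. The astrocyte markers were highest in mural replicate 3, at a median of 227% of the fragments against 84.6% and 65.2% in replicates 1 and 2. The oligodendrocyte progenitor and neural progenitor markers also had their highest median there (188% and 213%). The oligodendrocyte progenitor marker *Sox10* was lowest there, at 0.48 times the fragment mean against 1.39 and 1.27 in replicates 1 and 2. The 5 VSMC markers were lowest in mural replicate 1, at a median of 548% against 1375% and 1285%. The neuron markers had a median of 59.7%. The 5 fibroblast markers were split, with a median of 617% and a range of 62.0% to 1285%. Of these, *Col15a1* (62.0%) and *Pdgfra* (159%) were well below the others. The part of these cell types in the results below was not tested. Judged from the values of genes with a single transcript, the fragments on protein-coding genes numbered approximately 5405000 to 6003000 in the microvascular libraries and 1048000 to 2342000 in the sorted libraries. In bulk RNA, fewer cells of a type and less RNA per cell cannot be told apart.

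All levels are FPKM (fragments mapped to a gene, scaled by its exon length and by library size), which allow genes of different length to be compared. Groups were compared with limma on log2(FPKM + 1), with Benjamini-Hochberg adjustment over all 14801 genes, and a gene was called if it had an adjusted p under 0.05 and its mean FPKM differed by a ratio above 2 or below 0.5. Log2 differences (mural minus fragments) are in log2(FPKM + 1) units and come out too small for low genes. Of the 10 genes, 3 were called higher in mural cells (*Notch3*, *Jag1* and *Heyl*), against 6.43% of all genes tested, and 1 was called lower (*Jag2*), against 10.1%. Over all genes 952 were called higher and 1493 lower, whereas quantile normalization gave 1212 higher and 1080 lower, with the same counts of 3 and 1 among the 10. At an adjusted p under 0.05 without a fold limit, 4 were higher (the same genes and *Notch1*, background 9.34%) and 3 were lower (*Jag2*, *Dll4* and *Hey1*, background 13.0%). Each family was thus split, with members on both sides or not past the test.

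**Figure D1:**
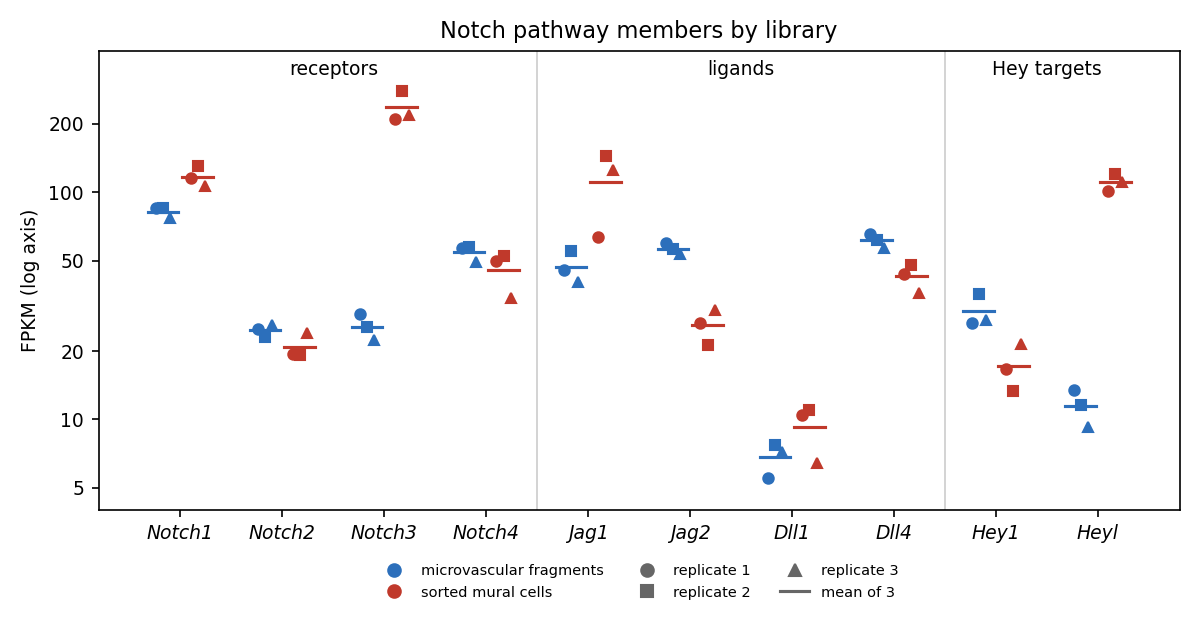
FPKM (log axis) of the 10 genes in each library, with microvascular fragments in blue, sorted mural cells in red, a symbol for each replicate number and a line at the mean of 3. *Notch3* and *Heyl* lie far higher in all 3 sorted libraries, *Jag2*, *Dll4* and *Hey1* lie lower, and *Jag1* spreads from 63.4 to 144 among the sorted libraries.

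The promoters of the receptor and the ligand called higher, *Notch3* and *Jag1*, and of *Hey2*, a target gene described further on, are shown as the 250 bases before the transcription start (RefSeq, build GRCm38.p6, which is not the build of the expression files, 5′ to 3′ on the gene's strand). Capitals mark TGGGAA, the core of the site bound by RBPJ, or its reverse complement TTCCCA.
Notch3 (chr17:32166891-32167140, minus strand): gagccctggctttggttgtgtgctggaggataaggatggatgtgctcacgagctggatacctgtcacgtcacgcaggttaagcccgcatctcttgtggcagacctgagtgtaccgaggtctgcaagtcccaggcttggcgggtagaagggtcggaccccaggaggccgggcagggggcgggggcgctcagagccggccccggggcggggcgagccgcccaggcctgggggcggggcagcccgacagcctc
Jag1 (chr2:137116521-137116770, minus strand): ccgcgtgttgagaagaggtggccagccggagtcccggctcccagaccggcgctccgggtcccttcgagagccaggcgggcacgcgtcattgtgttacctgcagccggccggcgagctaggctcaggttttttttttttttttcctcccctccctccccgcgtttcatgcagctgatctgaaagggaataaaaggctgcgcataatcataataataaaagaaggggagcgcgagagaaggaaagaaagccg
Hey2 (chr10:30842784-30843033, minus strand): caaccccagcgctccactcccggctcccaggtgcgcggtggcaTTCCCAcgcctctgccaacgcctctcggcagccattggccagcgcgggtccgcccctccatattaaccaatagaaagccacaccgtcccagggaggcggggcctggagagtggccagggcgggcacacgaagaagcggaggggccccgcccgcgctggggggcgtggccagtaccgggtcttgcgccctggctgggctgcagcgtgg
The *Notch3* and *Jag1* stretches do not contain these letters, and *Hey2* has them once, with the first base 207 bases before the start. RefSeq entries were matched for 8 of the 10 genes (*Hey1* and *Heyl* were not matched), and none of their 9 promoters held the motif in this window, against 21.6% of all 32851 promoters. Of 52 promoters of the other pathway genes listed, *Hey2* included, 15 held it (28.8%). A missing match says only that these letters are not in this window. The stretches had a GC content of 68.8% (*Notch3*), 57.2% (*Jag1*) and 71.6% (*Hey2*).

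*Notch3* was the receptor with the large difference. The gene (ENSMUSG00000038146; NCBIM37, chromosome 17, 32257765 to 32303825, minus strand) has a single annotated transcript. Its FPKM was 211, 278 and 220 in mural replicates 1, 2 and 3, and 29.1, 25.5 and 22.4 in fragments. Every sorted library was thus above every microvascular library, as for 16.5% of all genes tested. Mean levels were 236 ± 36.4 against 25.7 ± 3.34 (SD, n = 3 each). The ratio was 9.21, the log2 difference 3.15 with an SE of 0.15, and limma gave an adjusted p of 8.1e-05. These values rest on approximately 1380 to 2902 fragments in the sorted libraries and 825 to 1042 in the microvascular libraries. In the mural samples *Notch3* was above 98.8% of the genes tested, and in the fragments above 71.0%.

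*Notch1*, the receptor used most broadly across tissues (ENSMUSG00000026923, chromosome 2, 26313423 to 26372183), had an FPKM of 115, 130 and 106 in the sorted libraries against 85.0, 85.0 and 77.0 in fragments. The sorted libraries were all above the microvascular libraries, as for 16.5% of all genes tested, but the ratio was only 1.43. The log2 difference was 0.50 ± 0.12 (SE), at an adjusted p of 0.021 in limma and with a 95% interval of 0.23 to 0.78. The adjusted p rose to 0.078, 0.072 and 0.093 without fragments replicate 1, 2 or 3 and to 0.0501 without mural replicate 2, with a ratio between 1.33 and 1.49 under all alternatives. The gene overlaps 2 non-coding genes on the opposite strand, *0610009E02Rik* and *Gm13568*, both with a mean FPKM under 3, and the use of strand in counting is not given in the sources used here.

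*Notch4*, a receptor of EC (ENSMUSG00000015468, chromosome 17, 34701213 to 34725448), had an FPKM of 49.9, 52.5 and 34.1 in the sorted libraries against 56.6, 57.6 and 49.6 in fragments. The groups overlapped, and the ratio of 0.83 did not pass the test (adjusted p = 0.324, 95% interval of the log2 difference -0.71 to 0.15). *Notch2*, a receptor found in many cell types (ENSMUSG00000027878, chromosome 3, 97817461 to 97954290), had an FPKM of 19.5, 19.2 and 24.0 in the sorted libraries against 25.0, 23.0 and 26.0 in fragments. It overlapped as well, at a ratio of 0.85 (adjusted p = 0.314, 95% interval -0.59 to 0.12).

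The summed FPKM of the 4 receptors in sorted libraries was 420 ± 52.3 and in microvascular libraries 187 ± 10.9 (SD, n = 3 each). Within each library the share of a receptor in this sum does not depend on the scaling between libraries. *Notch3* made up 53.3%, 57.9% and 57.2% of the sum in the sorted libraries and 14.9%, 13.4% and 12.8% in the fragments. It was thus the leading receptor in every sorted library and came after *Notch1* and *Notch4* in every microvascular library. *Notch1* held 28.0% ± 1.05 of the sum in sorted libraries against 44.0% ± 0.51 in fragments (SD, n = 3 each), although its FPKM was higher in mural cells. *Notch4* held 10.8% ± 1.87 against 29.1% ± 0.92, and *Notch2* 5.06% ± 1.13 against 13.2% ± 1.45 (SD, n = 3 each). None of the 4 shares overlapped between the groups, and each exact two-sided permutation test gave p = 0.1, below which a design of 3 against 3 cannot go. In all, 8 shares of receptors and ligands were compared in this way.

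**Figure D2:**
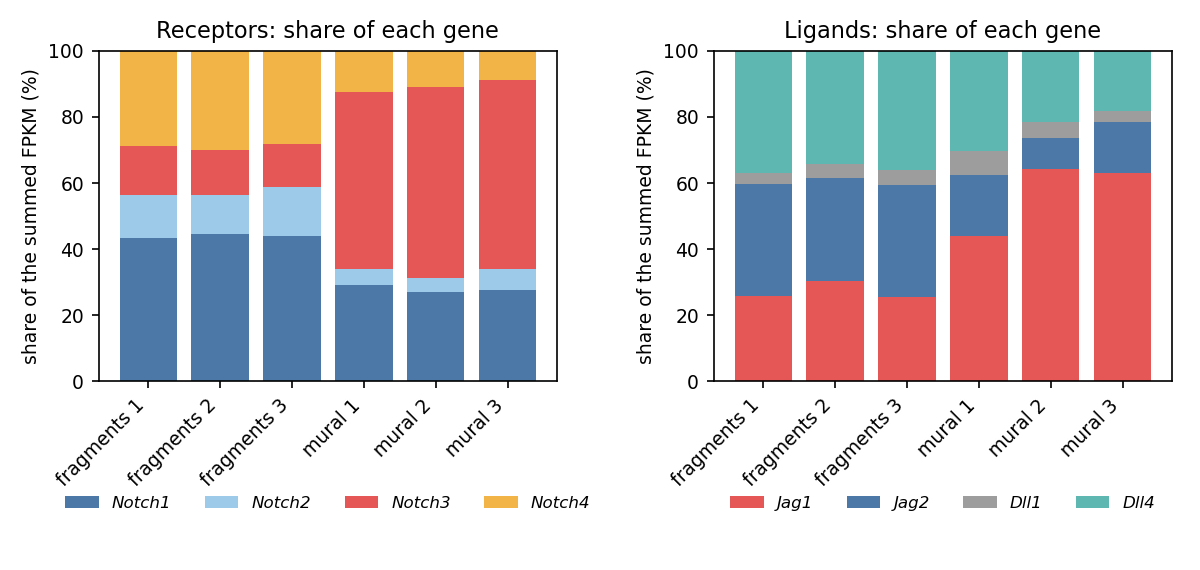
Share (%) of each receptor in the summed FPKM of the 4 receptors and of each ligand in that of the 4 ligands, by library. *Notch3* is the largest part of the bar only in the 3 sorted libraries, and the *Jag1* part is smaller in mural replicate 1 (44.0%) than in replicates 2 and 3 (64.2% and 63.2%).

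Among the ligands, *Jag1* was higher and *Jag2* lower in mural cells. *Jag1* (ENSMUSG00000027276, chromosome 2, 136907192 to 136942380) had an FPKM of 63.4, 144 and 125 in mural replicates 1, 2 and 3 and 45.7, 55.0 and 40.3 in fragments. Mural replicate 1 was close to the highest microvascular library, while replicates 2 and 3 were well above it. Mean levels were 111 ± 42.2 against 47.0 ± 7.46 (SD, n = 3 each). Mural cells had 2.36 times the level of fragments, a log2 difference of 1.15 ± 0.30 (SE) with an adjusted p of 0.032 in limma. The call was lost when single libraries were left out. The adjusted p was 0.099, 0.061 and 0.117 without fragments replicate 1, 2 or 3, and 0.072 and 0.081 without mural replicate 2 or 3, at a ratio of 2.00 or more in each case. Without mural replicate 1 the ratio was 2.87.

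Like *Jag1*, all 5 VSMC markers were lowest in mural replicate 1 among the sorted libraries. Against the mean of the fragments, *Jag1* was 1.35-fold, 3.07-fold and 2.66-fold higher in mural replicates 1, 2 and 3. For *Acta2*, smooth muscle actin, the values were 6.56, 14.4 and 16.5, and for *Tagln*, an actin-binding protein of smooth muscle, 5.85, 14.1 and 16.8. *Smtn*, the VSMC marker not called, differed little, at 1.13, 1.29 and 1.37. *Notch3* (8.22, 10.8 and 8.57) and *Heyl* (8.89, 10.5 and 9.69) were lowest in mural replicate 1 too, but varied less among the 3 libraries than *Jag1*. *Hey2*, which is not among the 5 VSMC markers listed, was also lowest there (5.50, 9.53 and 6.62). Whether the VSMC content of the libraries has a part in the *Jag1* values was not tested.

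**Figure D3:**
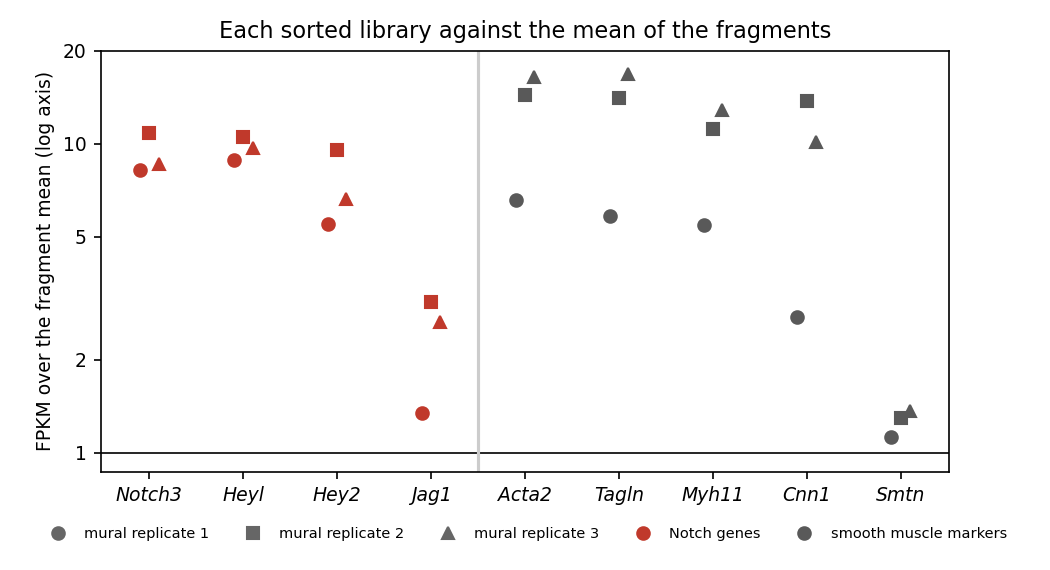
FPKM of each sorted library divided by the mean of the 3 microvascular libraries (log axis), for 4 Notch pathway genes in red and 5 VSMC markers in grey. *Jag1*, *Acta2*, *Tagln*, *Myh11* and *Cnn1* have mural replicate 1 well below replicates 2 and 3, whereas for *Notch3*, *Heyl* and *Smtn* the 3 libraries lie close together. *Hey2* is also lowest in mural replicate 1.

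*Jag2* (ENSMUSG00000002799, chromosome 12, 114146801 to 114167706) was the only one of the 10 genes called lower. Its FPKM was 26.5, 21.3 and 30.3 in the sorted libraries against 59.9, 56.4 and 53.3 in fragments. All sorted libraries lay below all microvascular libraries, as for 24.5% of the genes tested. Mean levels were 26.0 ± 4.53 against 56.5 ± 3.30 (SD, n = 3 each). The ratio was 0.46, the log2 difference -1.10 with an SE of 0.16, and limma gave an adjusted p of 0.002. Without mural replicate 2 the ratio was 0.502 and just missed the fold limit. The sorted values rest on approximately 62 to 179 fragments.

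*Dll4*, the Delta-like ligand of arterial EC and sprouting tip cells (ENSMUSG00000027314, chromosome 2, 119151520 to 119161698), had an FPKM of 43.7, 48.1 and 36.1 in the sorted libraries against 65.5, 61.9 and 56.8 in fragments. The groups did not overlap, with mural cells below, as for 24.5% of all genes tested. Mural cells had 0.69 times the level of fragments, a log2 difference of -0.52 ± 0.14 (SE) with an adjusted p of 0.036 in limma. The adjusted p was 0.156, 0.128 and 0.085 without fragments replicate 1, 2 or 3, and 0.060 and 0.069 without mural replicate 1 or 3. A non-coding gene on the opposite strand, *Gm14207*, overlaps *Dll4* and had a mean FPKM of 8.56 in mural cells and 12 in fragments. *Dll1*, a ligand known from neural progenitors and arteries (ENSMUSG00000014773, chromosome 17, 15504318 to 15513836), had the lowest level of the 10 genes in both groups. Its FPKM was 10.4, 11 and 6.41 in the sorted libraries against 5.5, 7.72 and 7.23 in fragments, which overlapped (ratio 1.36, adjusted p = 0.367, 95% interval of the log2 difference -0.25 to 1.00). The sorted values rest on approximately 17 to 62 fragments.

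The summed FPKM of the 4 ligands did not separate the groups, with 189 ± 41.1 for mural cells against 172 ± 12.4 for fragments (SD, n = 3 each; p = 0.5, exact permutation test, two-sided). *Jag1* held 57.1% ± 11.4 of the sum in mural cells and 27.3% ± 2.70 in fragments, *Jag2* 14.4% ± 4.53 and 33.0% ± 1.58, and *Dll4* 23.3% ± 6.27 and 35.8% ± 1.45 (SD, n = 3 each). For these 3 ligands the shares of the groups did not overlap (exact two-sided permutation test, p = 0.1 each, the smallest p possible). The *Dll1* share overlapped, at 5.13% ± 2.01 and 3.99% ± 0.77 (SD, n = 3 each, exact permutation test, p = 0.4).

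The Hey genes encode repressors of the basic helix-loop-helix type that Notch signaling switches on. *Heyl* (ENSMUSG00000032744, chromosome 4, 122910799 to 122927118) had an FPKM of 102, 121 and 111 in the sorted libraries against 13.4, 11.6 and 9.26 in fragments. The groups were far apart, with means of 111 ± 9.43 against 11.4 ± 2.10 (SD, n = 3 each). The ratio was 9.70, the log2 difference 3.18 with an SE of 0.16, and limma gave an adjusted p of 8.1e-05. *Hey1* (ENSMUSG00000040289, chromosome 3, 8663362 to 8667039) went the other way, with an FPKM of 16.6, 13.4 and 21.5 in the sorted libraries against 26.5, 35.8 and 27.3 in fragments. The ratio was 0.57 and the log2 difference -0.78 ± 0.21 (SE), at an adjusted p of 0.038 in limma. The groups did not overlap, with mural cells below, as for 24.5% of all genes tested. The *Hey1* values in sorted libraries rest on approximately 20 to 58 fragments, and the adjusted p was 0.086, 0.147 and 0.098 without fragments replicate 1, 2 or 3, and 0.077 and 0.074 without mural replicate 1 or 2.

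*Hey2*, the remaining gene of the Hey family, is not one of the 10. Its FPKM was 42.2, 73.2 and 50.8 in the sorted libraries against 8.38, 9.25 and 5.39 in fragments, a ratio of 7.22 (log2 difference 2.69 ± 0.26, SE, limma adjusted p = 5.4e-04). Within the family *Heyl* and *Hey2* were thus both higher in every sorted library, and *Hey1* was lower in every sorted library.

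The order of the levels differed between the groups. EC transcripts were present in both, so these are levels of the libraries and not of a cell type. In the sorted libraries *Notch3* came first, followed by *Notch1*, *Heyl* and *Jag1*, whose ranges overlapped from each to the next. Then came *Notch4* and *Dll4*, which overlapped, and *Jag2*, *Notch2* and *Hey1*, which overlapped in this order, with *Dll1* last. In fragments *Notch1* came first, followed by *Dll4*, *Jag2*, *Notch4* and *Jag1*, each overlapping the next, then by *Hey1*, *Notch3* and *Notch2*, which also overlapped, and by *Heyl* and *Dll1*, which were separate from their neighbours.

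Because EC transcripts were present in both groups, each gene was also set against the 12 EC markers within its library. On the log2(FPKM + 1) scale the mean of these markers differed by -0.46 (mural minus fragments), so all values below are shifted up by this amount against the comparison above. Relative to the EC markers, *Notch3* was 3.61 and *Heyl* 3.64 higher in mural cells, *Jag1* 1.60, *Notch1* 0.96 and *Dll1* 0.83, without overlap of the groups. *Jag2* was lower by this measure too, at -0.65 without overlap. Of these 6 genes, *Dll1* overlapped between the groups in FPKM. The share of all genes tested without overlap by this measure was not determined, so the 6 cannot be set against a background. *Dll4* (-0.07), *Hey1* (-0.32), *Notch2* (0.22) and *Notch4* (0.18) overlapped between the groups, and *Notch2* and *Notch4* had the opposite sign to their values above. For the 6 genes without overlap the exact two-sided permutation test gave p = 0.1, the smallest possible, and for *Dll4*, *Hey1*, *Notch2* and *Notch4* it gave p = 0.6, 0.4, 0.6 and 0.2. *Jag2* was thus the only one of the 10 genes whose level relative to the EC markers was lower in every sorted library than in every microvascular library. The 5 arterial EC markers had a median level in sorted cells of 51.7% of that in fragments (range 10.5% to 289%), beside 72.8% for the 12 EC markers, and none was at 0. Of these, *Bmx* (10.5%) and *Sox17* (46.9%) were called lower and *Gja4* (289%) higher, while *Efnb2* was at 51.7% and *Gja5* at 87.9%. Their part in the *Jag2*, *Dll4* and *Hey1* values was not tested.

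The genes whose profile over the 6 libraries was most like that of *Notch3* were found by the root mean square difference of log2(FPKM + 1) after centring each gene on its mean. The nearest 5 of all genes tested were *Tbx2* (0.07), *Heyl* (0.08), *Gucy1a3* (0.08), *Tbx18* (0.09) and *Trpc6* (0.10). *Tbx2* and *Tbx18* encode T-box transcription factors, *Gucy1a3* a subunit of soluble guanylate cyclase and *Trpc6* a cation channel. For *Dll4* the nearest were *Topbp1* (0.06), *Prr13* (0.06), *Map3k3* (0.07), *Gpr146* (0.07) and *Hmcn1* (0.07), whose ratios lay between 0.65 and 0.71. The 6 libraries fall into 2 groups, so this measure is set largely by the size of the group difference.

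Outside the 10 genes, 50 further genes of the pathway were listed, of which 44 passed the filter. Of these 44, 7 were called higher and 2 lower in mural cells, and 31 did not reach an adjusted p of 0.05, beside 6.43% higher and 10.1% lower over all genes tested. Their median ratio was 1.02, beside 0.94 for all genes tested. The 7 called higher were *Dlk1*, *Aph1b*, *Neurl1b*, *Hey2*, *Nrarp*, *Numbl* and *Dtx3*, and the 2 called lower were *Adam17* and *Neurl1a*. In fits that left out a library the number higher ranged from 3 (without fragments replicate 2) to 8, and it was 4 without fragments replicate 3. *Dlk1*, *Hey2*, *Dtx3* and *Neurl1a* kept their call in all 6 of these fits.

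**Figure D4:**
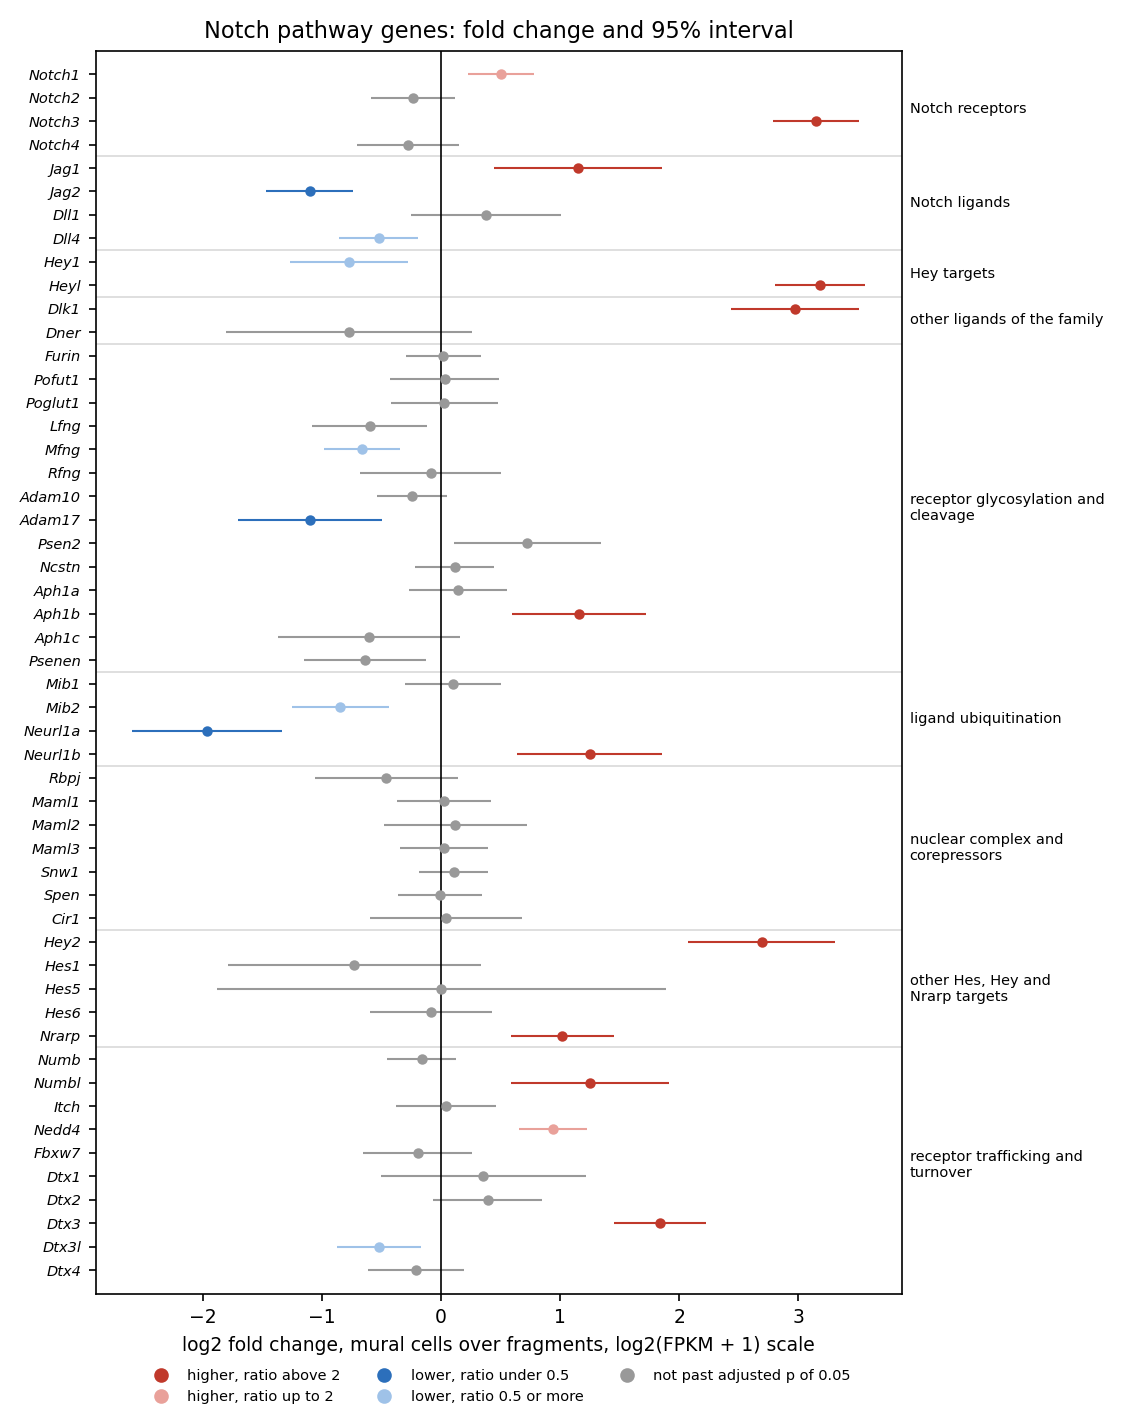
Fold change of mural cells over fragments in log2(FPKM + 1) units with its 95% interval from limma, for the 10 genes and the other pathway genes reported here, grouped by role. Red and blue mark calls, pale colours mark genes past the adjusted p but not the fold limit, and all genes shown for the nuclear complex are grey, not past the adjusted p.

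Among the other ligands, *Dlk1*, a Delta-like protein without the receptor-binding domain of the canonical ligands, had an FPKM of 44.7, 77.5 and 72 in the sorted libraries against 8.10, 6.88 and 6.53 in fragments (ratio 9.03, limma adjusted p = 2.2e-04). It too was lowest in mural replicate 1, and it is also one of the 11 mural markers above. *Dner*, a neuronal ligand, overlapped between the groups at a ratio of 0.56, and *Dll3* and *Dlk2* were under the filter, with no library above an FPKM of 1.22.

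Of the 15 genes for glycosylation and cleavage of the receptors, 1 was called higher, 1 lower and 12 did not pass the test, counts near or under the shares over all genes (6.43% and 10.1%). *Adam17*, which encodes a shedding protease, had an FPKM of 28.3, 36.0 and 18.5 in the sorted libraries against 52.1, 51.5 and 73.8 in fragments (ratio 0.47, limma adjusted p = 0.021). The call held in 2 of the 6 fits without a library, and was lost without any of the fragments replicates and without mural replicate 3, with a ratio of up to 0.54. *Adam10*, the ADAM protease mainly used for ligand-dependent Notch cleavage, was at a ratio of 0.85 (adjusted p = 0.210). The gamma-secretase genes *Psen2* (1.77), *Ncstn* (1.09), *Aph1a* (1.12) and *Psenen* (0.65) did not pass the test. *Aph1b*, an alternative subunit of that complex, was low but called higher, with an FPKM of 5.74, 6.28 and 6.73 against 2.65, 2.01 and 2.10 (ratio 2.77, adjusted p = 0.013), which was lost without fragments replicate 2 or 3 (adjusted p up to 0.071). *Aph1c* of the same list, lower still in FPKM, went the other way and overlapped between the groups (ratio 0.42, limma adjusted p = 0.234). Among the Fringe genes, whose enzymes modify the receptors, *Mfng* was lower at a ratio of 0.63 (adjusted p = 0.012), a result that was lost without any one of the fragments replicates (adjusted p up to 0.066). *Lfng* was at 0.66 (adjusted p = 0.079) and *Rfng* at 0.96 (adjusted p = 0.842).

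The 4 genes for ubiquitination of the ligands were split. *Neurl1a*, an E3 ligase best known from neurons, had an FPKM of 1.62, 2.72 and 1.46 in the sorted libraries against 12, 9.48 and 9.54 in fragments (ratio 0.19, limma adjusted p = 0.002). Its relative *Neurl1b* had 8.75, 15 and 14.6 against 4.76, 4.23 and 5.07 (ratio 2.73, adjusted p = 0.014), a call lost without fragments replicate 1 or 2 (adjusted p up to 0.056). The E3 ligase *Mib1*, needed for ligand endocytosis, was at a ratio of 1.09 and did not pass the test (adjusted p = 0.716). *Mib2* was lower at a ratio of 0.54 (adjusted p = 0.013), which was lost without fragments replicate 1 or 3 (adjusted p up to 0.071).

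None of the 8 tested genes of the nuclear complex and its corepressors passed the test. *Rbpj*, the DNA-binding protein on which the pathway converges, had a ratio of 0.73 (95% interval of the log2 difference -1.06 to 0.14), and the Mastermind genes *Maml1*, *Maml2* and *Maml3* had ratios of 1.02, 1.12 and 1.02. *Rbpjl*, a relative of *Rbpj*, was under the filter, listed at 0 in the 3 sorted libraries and at 11.4, 0.209 and 1.84 in fragments.

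Of the other target genes, *Hey2* and *Nrarp* were called higher. *Nrarp*, a feedback inhibitor induced by Notch, had an FPKM of 61.6, 65.7 and 84.5 in the sorted libraries against 42.3, 30.8 and 30.2 in fragments (ratio 2.05, limma adjusted p = 0.007). Its ratio was near the limit and its call was lost without fragments replicate 2 or 3 or mural replicate 3, at ratios down to 1.85 and adjusted p up to 0.037. *Hes1*, a target in many tissues, varied widely among the fragments (106, 31.3 and 55.7) and among the mural libraries (50.6, 22.4 and 34.5), so its ratio of 0.56 was within the spread (adjusted p = 0.302). *Hes5*, a target in neural progenitors, was at 0.527, 8.73 and 13 in the sorted libraries against 2.84, 5.44 and 7.37 in fragments (adjusted p = 0.999). *Hes2*, *Hes3* and *Hes7* were under the filter.

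Of the 10 genes for receptor trafficking and turnover, 2 were called higher, beside 6.43% of all genes tested. *Dtx3*, a Deltex E3 ligase, had an FPKM of 105, 104 and 74.7 in the sorted libraries against 27.5, 23.3 and 25.6 in fragments (ratio 3.72, limma adjusted p = 3.8e-04). *Numbl*, a relative of the Notch inhibitor *Numb*, had 20.6, 10.4 and 13.1 against 6.37, 4.86 and 4.96 (ratio 2.73, adjusted p = 0.018), which was lost without fragments replicate 2 or 3 (adjusted p up to 0.074). *Nedd4*, an E3 ligase, was higher at a ratio of 1.93 (adjusted p = 0.002), and *Dtx3l* was lower at 0.68 (adjusted p = 0.045), which was lost without any one of the fragments replicates or without mural replicate 2 or 3 (adjusted p up to 0.175). *Numb* (0.89), *Itch* (1.04), *Fbxw7* (0.87), *Dtx1* (1.45), *Dtx2* (1.35) and *Dtx4* (0.85) did not pass the test.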

How the data were processed

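The deposited values are FPKM, 1 value per Ensembl gene in each of 6 libraries (3 of sorted cells, 3 of microvascular fragments, from 3 animals). The authors mapped their paired reads to NCBIM37 (TopHat2 2.0.4), took out duplicates (Picard 1.92) and estimated FPKM (Cufflinks 2.2.1, versions from the submitters' processing notes). How Cufflinks scaled the libraries is not given in the sources used here. Identifiers that appeared repeatedly, always with equal values (9 in all), were used once. GENCODE for NCBIM37 gave symbols and positions for 33116 of the 33460 genes.

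Tested genes reached an FPKM of 1 in 3 or more libraries. They were fitted as log2(FPKM + 1) with limma 3.58.1 under R 4.3.3, letting the prior variance follow intensity and adjusting p-values by Benjamini-Hochberg. On simulated data with 4-fold changes, the fit recovered 81 of 100 raised and 72 of 100 lowered genes, and 8 of its 161 calls were false. The simulation gave all genes the same dispersion, so these rates need not hold for the real libraries. Since FPKM are not counts, no count model was used. Shares and levels relative to EC markers were compared by exact two-sided permutation (SciPy 1.17.1, Python 3.11.15). The fragments behind a value were derived from the FPKM of 1 fragment, which made 98.5% to 99.2% of low values of single-transcript genes whole to within 0.1. For other genes the longest transcript was used, so these numbers are approximate and cover counting error only.

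The 10 genes, the pathway lists and the marker lists were chosen with earlier results of these data known. The text names the 10 genes, the listed pathway genes that passed the test or are needed to describe a list, and the 5 nearest genes to *Notch3* and *Dll4*. Of the listed markers 1 (*Sox1*) was not matched. Alternatives changed the pseudocount (0.1), the scaling (median ratio, quantile), the block by replicate number, the intensity trend, the filter (none, or an FPKM of 5), the fold limit (from limma), the threshold (adjusted p under 0.01) and the libraries used. Leaving out genes at 0 in a group, and using protein-coding genes alone, were added after seeing the data. Some genes of the lists are counted but not reported here by name.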

Additional observations from a re-analysis of the deposited data

How the results depend on the processing

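Over 16 alternatives each, *Notch3*, *Heyl*, *Jag2*, *Notch2*, *Notch4* and *Dll1* kept their direction and their side of an adjusted p of 0.05 (for *Notch3* and *Heyl* ratios of 8.40 to 9.87 and 8.86 to 10.6). *Notch1*, *Jag1*, *Dll4* and *Hey1* kept their direction and lost significance in 6, 8, 7 and 9 alternatives, most of them fits with fewer samples or a stricter threshold. Without the filter the adjusted p was 0.054 for *Jag1* and 0.052 for *Hey1*.

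Without an intensity trend 2 of the 10 genes were higher and 1 lower at an adjusted p under 0.05 (*Notch1* 0.069, *Jag1* 0.056, *Dll4* 0.081 and *Hey1* 0.058). The cause was not tested. At an adjusted p under 0.01, 2 of the 10 genes were higher and 1 lower without a fold limit, 4 other pathway genes were called higher and 1 lower (5 and 1 without a fold limit), and of all genes 845 were called lower (769 higher and 909 lower without a fold limit). With a filter at an FPKM of 5, which tests fewer genes, 948 genes were called lower, against 1493. When each library was left out, 607 to 1733 genes were called lower and 691 to 949 higher, and without a fold limit 719 to 2127 were lower and 842 to 1316 higher. For the 10 genes these fits gave 2 to 3 called higher and 0 to 1 lower, and 2 to 4 and 1 to 2 without a fold limit. For the other pathway genes they gave 3 to 8 and 1 to 2, and 5 to 9 and 1 to 6 without a fold limit.

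When replicate numbers entered the fit as a block, 3 of the 10 genes were called higher and 1 lower, and *Hey1* had an adjusted p of 0.076. Deviations of same-numbered libraries correlated across genes with r of 0.08, 0.02 and 0.05. Their mean r of 0.05 was small but above that of every other pairing of the libraries (-0.03 to 0.03). These values do not settle whether a number marks the same animal, and the block was used as an alternative only. With the same 3 numbers in both groups, the block cannot alter the difference in a share.

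Relative to EC markers, the *Dll4* difference of -0.07 became 0.15 with *Pecam1* alone, and ranged from -0.17 to 0.030 (without mural replicate 1) when each library was left out. The cause was not tested. All other shares and relative levels kept their direction. Quantile normalization shifted the median log2 fold change of all genes by 0.13 and reversed none of the 10. *Dll1* and *Hey1* rest on few fragments in the sorted libraries, and the part of depth in their results was not tested.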
